A study of Mus musculus with 6 samples.

Results

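Core and resident macrophage genes were examined in the murine tissues entangled with bone marrow stromal cell-engineered cartilage (BEC). The 10 genes are the entries of the table of raw read counts whose gene symbol is Adgre1, Csf1r, Cd68, Itgam, Lyz2, Mertk, Mrc1, Cd163, Folr2 or Csf1, so they are 10 of the 48440 genes in that table. Adgre1, Csf1r, Cd68, Itgam and Lyz2 were taken as pan-macrophage genes, Mertk, Mrc1, Cd163 and Folr2 as tissue-resident genes, and Csf1 as the gene of a growth factor. All 10 were found under these symbols, and all 10 were kept by edgeR's expression filter, which left 15257 genes for testing. Rabbit BEC was wrapped in electrospun PCL/collagen membranes and placed under the skin of male BALB/c nude mice 6 to 8 weeks old, and the host tissue was sequenced after 12 weeks. In the 0%-Axitinib group (3 samples) the membrane held no drug, and in the 3%-Axitinib group (3 samples) it held axitinib at 3% of the mass of PCL and collagen. Axitinib is an inhibitor of VEGF receptor tyrosine kinases. The labels call the first group untreated, and it was taken as the 0%-Axitinib group because the study's protocol names membranes with 0% and 3% of the drug. The study also had a control of BEC without a membrane, and the labels alone do not tell that control from the 0% membrane. Each mouse carried a pair of constructs of one group, and which samples share a mouse is not given, so n counts samples and p-values measure the spread between samples. Nude mice have no functional thymus and few mature T cells, and they keep B cells, granulocytes, monocytes and macrophages.

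Macrophages of connective tissue are either seeded before birth and renewed locally or replenished from blood monocytes. Their survival rests on the receptor encoded by Csf1r, which binds the growth factors encoded by Csf1 and Il34. After an implant is placed, macrophages are among the main cells of the foreign body response, where they engulf debris, fuse into giant cells and signal to vessels and fibroblasts. In bulk RNA, fewer macrophages and less RNA of a gene per macrophage cannot be told apart, and this holds for every gene below.

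The libraries were not alike in ways that bear on these genes. Reads counted on genes numbered 17761968, 16716411 and 18005908 in replicates 1, 2 and 3 of the 0%-Axitinib group and 9225518, 11686084 and 18403795 in those of the 3%-Axitinib group. Reads that could not be mapped to the mouse genome made up 5.47, 3.84 and 14.9% of the 0%-Axitinib libraries and 48.4, 29.2 and 16.8% of the 3%-Axitinib libraries, so every 3%-Axitinib library had the larger share (p = 0.1 by the two-sided exact permutation test, and no smaller value is possible for 3 samples against 3). Whether unmapped reads came from the rabbit cells was not tested. Replicate 3 of the 0%-Axitinib group stood apart. A list of 12 neutrophil genes took 0.00932, 0.0097 and 3.91% in the 0%-Axitinib samples and 0.0194, 0.0144 and 0.00709% in the 3%-Axitinib samples. Its most abundant gene per length, S100a9, a calcium-binding protein of neutrophils, measured 13.8, 20.1 and 10660 CPM across the 0%-Axitinib samples and 29.1, 43.2 and 6.08 CPM across the 3%-Axitinib samples (CPM, read counts scaled to library size with TMM normalisation). Rank correlations of this library with the other 5 over the tested genes lay between 0.846 and 0.893, while those among the other 5 lay between 0.909 and 0.978. Results for the macrophage genes are therefore given with and without 0%-Axitinib replicate 3, and the part of neutrophil RNA in them was not tested.

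None of the 10 macrophage genes met the study's criterion of a change of 1.5-fold or more at a p no larger than 0.05, taken here as unadjusted. By the same test, 11.7% of the 15257 tested genes met it as lower and 9.54% as higher in the 3%-Axitinib group. Of the genes that met it 55.1% were lower, and 71.2% when libraries were scaled by total counts, where the median log2 fold change of all tested genes was -0.16 in place of -0.03. The study, with counts normalised by DESeq2, reported fewer genes under its criterion, more of them higher than lower. The count of 0 was also reached with DESeq2's Wald test and with limma-voom, and none of the 10 had an unadjusted p of at most 0.05 with any of the 3 tools. Adjusted p-values lay between 0.276 (Adgre1) and 0.871 (Mertk) by edgeR's quasi-likelihood test with Benjamini-Hochberg adjustment, and in that test 0.00655% of all tested genes had an adjusted p of at most 0.05. The samples of the groups overlapped for all 10 genes, whereas 16.6% of the tested genes had all 3%-Axitinib samples below all 0%-Axitinib samples and 14.7% had them all above. The fitted log2 fold change (3%-Axitinib minus 0%-Axitinib) was below 0 for 6 genes and above 0 for 4. These estimates were wide: the 95% interval reached a decrease of 2-fold for 7 of the 10 genes and an increase of 2-fold for 6. A p above the threshold in such data does not show that the groups were alike.

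**Figure D1:**
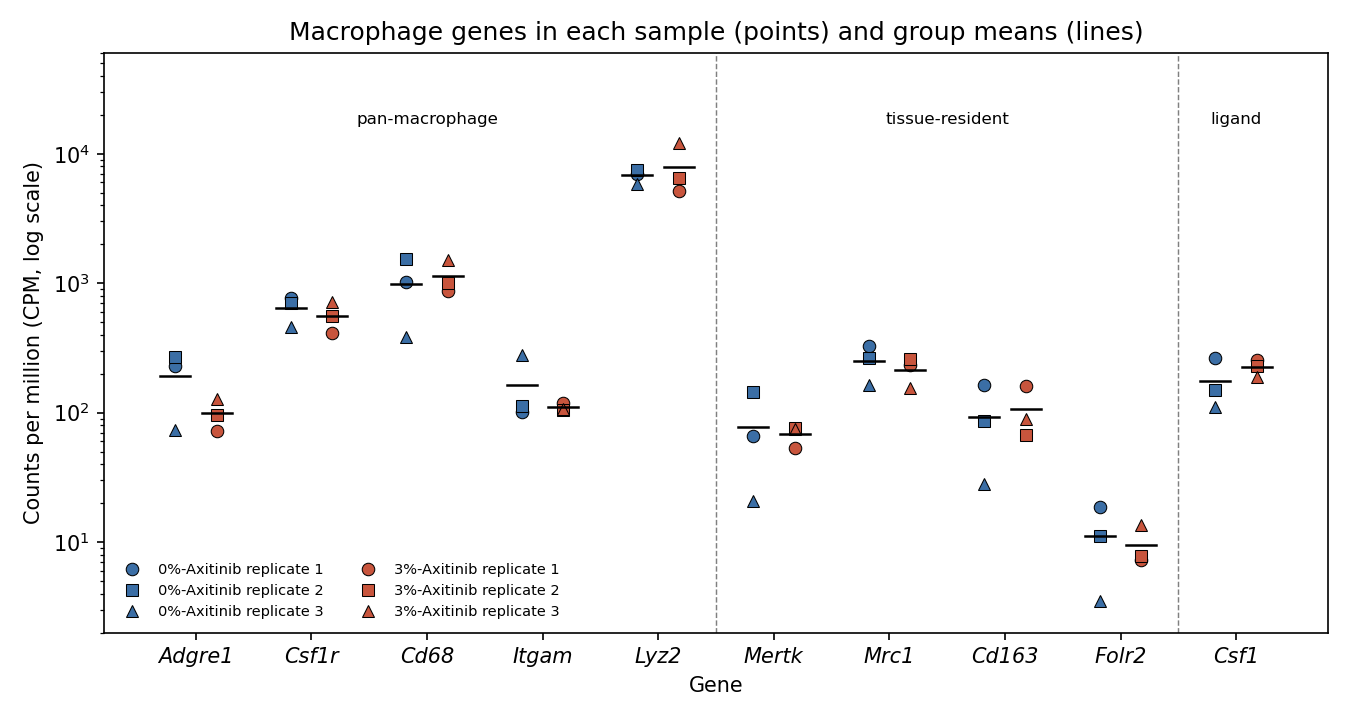
Level of each of the 10 macrophage genes in each sample, in CPM on a log scale, with circles, squares and triangles for replicates 1, 2 and 3, blue for 0%-Axitinib, red for 3%-Axitinib and a line at each group mean. 0%-Axitinib replicate 3 (blue triangle) was the lowest sample of its group for 9 genes and the highest for Itgam (278 CPM).

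Among the pan-macrophage genes, the largest difference between groups was that of Adgre1. Adgre1 encodes F4/80, the adhesion receptor most used to identify mouse macrophages, and lies on the forward strand at chr17:57358691-57483527 (GRCm38). It measured 229.6, 271 and 73.2 CPM in replicates 1, 2 and 3 of the 0%-Axitinib group and 72, 96.4 and 127 CPM in those of the 3%-Axitinib group. Replicates 1 and 2 of the 0%-Axitinib group were above all other samples, while 0%-Axitinib replicate 3 sat level with the lowest 3%-Axitinib sample, so the groups overlapped through that library alone. The means were 191 ± 104 CPM in the 0%-Axitinib group and 98.6 ± 27.7 CPM in the 3%-Axitinib group (SD, n = 3 each). The log2 fold change was -0.96 (standard error 0.49, 95% interval -2.10 to 0.19, adjusted p = 0.276 in edgeR). Without 0%-Axitinib replicate 3 it was -1.35 with a standard error of 0.26 and an adjusted p of 0.0433 by edgeR's quasi-likelihood test with Benjamini-Hochberg adjustment, and the criterion was then met. Adgre1 was the 1 of 10 macrophage genes called lower without that library, where 13.7% of all tested genes met the criterion as lower and 3.89% had an adjusted p of at most 0.05 as lower. With 2 samples left in the 0%-Axitinib group, 27.1% of the tested genes lay lower in every 3%-Axitinib sample, as did 2 of the 10 macrophage genes, Adgre1 and Mrc1. Leaving out any other single sample kept its estimate between -1.20 and -0.62, below 0 each time and short of the criterion.

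Csf1r, the receptor for CSF1 and interleukin-34, overlaps the gene Hmgxb3, which lies on the other strand. Its level was 763, 700.4 and 460.1 CPM in replicates 1, 2 and 3 of the 0%-Axitinib group and 409, 556 and 715 CPM in those of the 3%-Axitinib group. The range was narrow, with the highest sample 1.66 times the lowest in the 0%-Axitinib group and 1.75 times in the 3%-Axitinib group, and 3%-Axitinib replicate 1 was the lowest of all 6. Between groups the log2 fold change was -0.20 (standard error 0.33, 95% interval -0.97 to 0.58, adjusted p = 0.745 in edgeR), and -0.39 without 0%-Axitinib replicate 3. Whether counting used the strand is not stated in the sources used here. Whether reads in the stretch shared with Hmgxb3 were counted for Csf1r is therefore not known.

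Cd68 encodes macrosialin, a glycoprotein of late endosomes and lysosomes, at chr11:69664213-69666153 on the reverse strand. It measured 1019, 1544 and 381 CPM in replicates 1, 2 and 3 of the 0%-Axitinib group and 874, 1003 and 1512 CPM in those of the 3%-Axitinib group. The highest and the lowest sample both belonged to the 0%-Axitinib group, and all 3 samples of the 3%-Axitinib group lay between them. Its fitted log2 fold change was 0.20 (standard error 0.52, 95% interval -1.04 to 1.44, adjusted p = 0.837 in edgeR) and turned to -0.18 without 0%-Axitinib replicate 3. Cd68 and Adgre1 thus had estimates of opposite sign over all 6 samples, and both were below 0 without that library.

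Itgam, the alpha chain of the complement receptor CR3 (CD11b), is carried by neutrophils and monocytes as well as macrophages, and lies at chr7:128062640-128118491 on the forward strand. Its level was 101, 112 and 278 CPM in replicates 1, 2 and 3 of the 0%-Axitinib group and 119, 105 and 107 CPM in those of the 3%-Axitinib group. A single library, 0%-Axitinib replicate 3, was 2.6 times the mean of the other 2 of its group, and the remaining 5 samples lay between 101 and 119 CPM. In the 3%-Axitinib group the coefficient of variation was 6.99%, the smallest of the 10 genes, against 60.4% in the 0%-Axitinib group. The log2 fold change of -0.57 (standard error 0.40, 95% interval -1.53 to 0.38, adjusted p = 0.412 in edgeR) became 0.04 (standard error 0.15) without that library. The interval then ran from -0.33 to 0.41, which leaves out the 1.5-fold change of the criterion in both directions. The protein-coding gene Gm49368 overlaps Itgam on the same strand. Ambiguous reads were given to no gene, and whether reads that fit both genes were among them was not tested.

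Lyz2 encodes lysozyme M, a bacteriolytic enzyme of macrophages and granulocytes, at chr10:117277331-117282321 on the reverse strand. It was the most abundant of the 10, with 7035, 7521 and 5859 CPM in replicates 1, 2 and 3 of the 0%-Axitinib group and 5168, 6513 and 12010 CPM in those of the 3%-Axitinib group. The 0%-Axitinib samples lay close together, while 3%-Axitinib replicate 3 was the highest and 3%-Axitinib replicate 1 the lowest of all 6. Its fitted log2 fold change was 0.21 (standard error 0.45, 95% interval -0.84 to 1.27, adjusted p = 0.796 in edgeR), and 0.11 without 0%-Axitinib replicate 3. Lyz2 alone made up 70.4, 69.6 and 79.4% of the counts of all 10 genes in the 0%-Axitinib samples and 70.3, 73.1 and 80.1% in the 3%-Axitinib samples, so a sum of counts over the 10 genes mostly follows Lyz2. The 10 genes together took between 0.725% and 1.41% of the reads on genes.

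Lyz2 has a near-identical neighbour, Lyz1, at chr10:117287797-117292868 on the same strand, and the table has a line of multiply mapped reads, which are given to no gene. In the GENCODE transcripts of GRCm38 the coding sequences of both are 444 bases long, differ at 22 bases (95% identical) and share a longest identical run of 118 bases. Exon 2 of each, shown because it holds both stretches that tell the genes apart and longer stretches that do not, follows with the 6 differing bases in capitals. The Lyz2 exon lies at chr10:117280641-117280805 and the Lyz1 exon at chr10:117291029-117291193, and both are written 5′ to 3′ on the reverse strand.
Lyz2: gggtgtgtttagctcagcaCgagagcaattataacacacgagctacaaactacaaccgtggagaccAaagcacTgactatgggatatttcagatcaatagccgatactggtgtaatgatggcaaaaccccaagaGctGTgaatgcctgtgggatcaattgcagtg
Lyz1: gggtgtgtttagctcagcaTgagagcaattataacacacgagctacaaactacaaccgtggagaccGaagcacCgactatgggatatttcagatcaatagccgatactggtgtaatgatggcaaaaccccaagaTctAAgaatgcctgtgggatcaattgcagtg
Lyz1 measured 673, 305 and 218 CPM in replicates 1, 2 and 3 of the 0%-Axitinib group and 334, 340.1 and 938 CPM in those of the 3%-Axitinib group. Its counts were 9.57, 4.05 and 3.72% of those of Lyz2 in the 0%-Axitinib samples and 6.47, 5.22 and 7.81% in the 3%-Axitinib samples, and it was highest in the same library as Lyz2. How the authors' counting divided the reads of this pair was not tested, so both levels are uncertain.

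The 4 tissue-resident genes showed no shared direction that was larger than the spread between samples. Mertk encodes a receptor tyrosine kinase through which macrophages take up apoptotic cells, and lies at chr2:128698956-128802894 on the forward strand. It measured 66.3, 145 and 20.9 CPM in replicates 1, 2 and 3 of the 0%-Axitinib group and 52.9, 76.5 and 74.2 CPM in those of the 3%-Axitinib group. The 0%-Axitinib samples spanned a 6.96-fold range, the widest of the 10 genes, and enclosed all 3 samples of the 3%-Axitinib group, which spanned 1.45-fold. For Mertk the log2 fold change was -0.19 (standard error 0.61, 95% interval -1.63 to 1.25, adjusted p = 0.871 in edgeR) over all samples and -0.64 without 0%-Axitinib replicate 3. Its sign turned with the tool, since limma-voom gave 0.19. Axitinib is directed at VEGF receptors, and whether it acted on the kinases encoded by Mertk or Csf1r was not tested.

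Mrc1, the mannose receptor CD206, which clears glycoproteins and collagen fragments, lies at chr2:14229392-14332057 on the forward strand. It measured 329.9, 263 and 164 CPM in replicates 1, 2 and 3 of the 0%-Axitinib group and 234, 258 and 154 CPM in those of the 3%-Axitinib group. The lowest samples were replicate 3 of each group, and the other 4 lay between 234 and 329.9 CPM. For Mrc1 the log2 fold change was -0.23 (standard error 0.33, 95% interval -1.02 to 0.56, adjusted p = 0.704 in edgeR), and -0.47 without 0%-Axitinib replicate 3. Cd163, the scavenger receptor for haptoglobin-bound haemoglobin, lies at chr6:124304656-124330527 on the forward strand. It measured 164, 85.8 and 27.9 CPM in replicates 1, 2 and 3 of the 0%-Axitinib group and 162, 67.2 and 89.8 CPM in those of the 3%-Axitinib group. Replicate 1 was high in both groups and 0%-Axitinib replicate 3 was low, below all other samples. Its log2 fold change was 0.20 (standard error 0.62, 95% interval -1.27 to 1.67, adjusted p = 0.868 in edgeR) and turned to -0.24 without 0%-Axitinib replicate 3.

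Folr2, folate receptor beta, a marker of perivascular and other resident macrophages, lies at chr7:101839988-101857194 on the reverse strand. It was the least abundant of the 10, with 18.6, 11.2 and 3.53 CPM in replicates 1, 2 and 3 of the 0%-Axitinib group and 7.26, 7.74 and 13.6 CPM in those of the 3%-Axitinib group. These levels rest on 357, 192 and 65 counts in the 0%-Axitinib samples and 66, 85 and 234 counts in the 3%-Axitinib samples, and the smallest count has an exact Poisson 95% interval of 50.2 to 82.8 counts, which covers counting error only. The 0%-Axitinib samples enclosed all 3 samples of the 3%-Axitinib group. Its fitted log2 fold change was -0.22 (standard error 0.59, 95% interval -1.61 to 1.17, adjusted p = 0.843 in edgeR), and -0.64 without 0%-Axitinib replicate 3. For the other 9 genes every sample held at least 384 counts, far above the limit of 3 counts used for detection.

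Csf1 encodes the growth factor that keeps macrophages alive and is made by fibroblasts, endothelial cells and others, so its level does not count macrophages. The gene lies at chr3:107741048-107760469 on the reverse strand. It measured 264, 150 and 110 CPM in replicates 1, 2 and 3 of the 0%-Axitinib group and 256, 230 and 189 CPM in those of the 3%-Axitinib group. All 3 samples of the 3%-Axitinib group lay inside the range of the 0%-Axitinib group, whose replicate 1 was the highest of all 6. For Csf1 the log2 fold change was 0.36 (standard error 0.35, 95% interval -0.46 to 1.19, adjusted p = 0.547 in edgeR) and 0.12 without 0%-Axitinib replicate 3. Without 0%-Axitinib replicate 1 it was 0.79 and met the criterion, which 9.72% of the genes tested without that library met as higher. Il34, the other ligand of the receptor, measured 59.7, 29.6 and 34.2 CPM across the 0%-Axitinib samples and 42, 45.3 and 57.3 CPM across the 3%-Axitinib samples. Its groups overlapped as well, with a log2 fold change of 0.23 (adjusted p = 0.667 in edgeR, standard error 0.30).

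**Figure D2:**
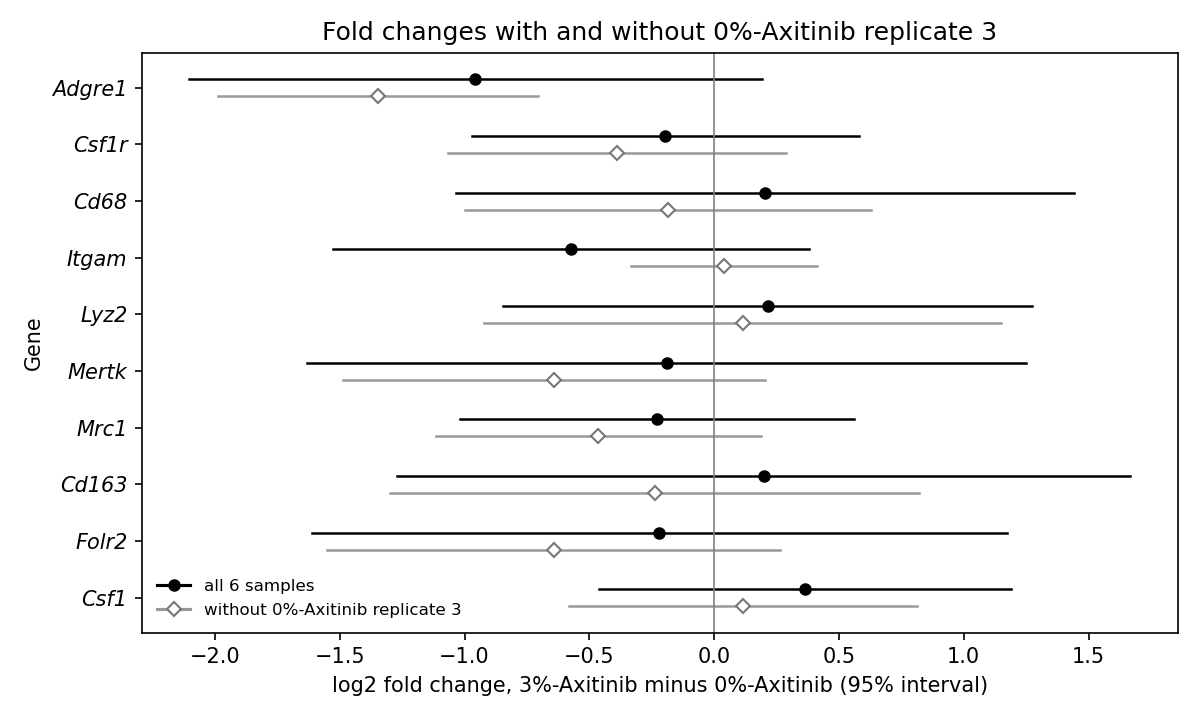
Fitted log2 fold change (3%-Axitinib minus 0%-Axitinib) of each of the 10 genes with its 95% interval, over all 6 samples (filled circles) and without 0%-Axitinib replicate 3 (open diamonds). Without that library the interval of Adgre1 ran from -1.99 to -0.71, and the intervals of the other 9 genes included 0.

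The pan-macrophage and tissue-resident genes were compared as groups, as a description and with no test. The median log2 fold change was -0.20 over the 5 pan-macrophage genes and -0.21 over the 4 tissue-resident genes, against -0.03 over all tested genes. Below 0 were 3 of 5 pan-macrophage and 3 of 4 tissue-resident genes. The tissue-resident median minus the pan-macrophage median was -0.01. Without 0%-Axitinib replicate 3 it was -0.37, with medians of -0.55 and -0.19, all 4 tissue-resident genes below 0, and a median of 0.02 over all tested genes. It moved the other way with other choices, to 0.24 without 0%-Axitinib replicate 1, 0.26 without 3%-Axitinib replicate 3 and 0.36 with limma-voom, so its sign was not settled. Per sample, the mean log2 CPM of the tissue-resident genes, set to 0 at the 0%-Axitinib mean, was 0.70, 0.49 and -1.19 in the 0%-Axitinib samples and 0.16, 0.03 and 0.14 in the 3%-Axitinib samples. That of the pan-macrophage genes was 0.11, 0.30 and -0.41 in the 0%-Axitinib samples and -0.49, -0.25 and 0.20 in the 3%-Axitinib samples. The tissue-resident mean minus the pan-macrophage mean, on the same footing, was 0.59, 0.19 and -0.78 in the 0%-Axitinib samples and 0.65, 0.28 and -0.07 in the 3%-Axitinib samples. 0%-Axitinib replicate 3 was the lowest sample for this difference and 3%-Axitinib replicate 1 the highest, and the groups overlapped. For the tissue-resident mean 0%-Axitinib replicate 3 was the lowest of all 6 samples, and for the pan-macrophage mean 3%-Axitinib replicate 1 was.

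Ratios within a sample do not depend on how libraries are scaled, so each gene was also set against Adgre1, per kilobase of exon. The ratio of Mertk to Adgre1 was 0.216, 0.40 and 0.213 in the 0%-Axitinib samples and 0.548, 0.593 and 0.435 in the 3%-Axitinib samples. Every 3%-Axitinib sample was above every 0%-Axitinib sample, and the smallest gap lay between 0.40 and 0.435. Mrc1 to Adgre1 gave 0.73, 0.492 and 1.14 in the 0%-Axitinib samples and 1.65, 1.36 and 0.615 in the 3%-Axitinib samples, which overlapped. Cd163 to Adgre1 gave 0.424, 0.187 and 0.226 in the 0%-Axitinib samples and 1.33, 0.413 and 0.418 in the 3%-Axitinib samples, where 3%-Axitinib replicate 1 stood alone and the others of its group touched the 0%-Axitinib range. Folr2 to Adgre1 gave 0.17, 0.0864 and 0.101 in the 0%-Axitinib samples and 0.211, 0.168 and 0.223 in the 3%-Axitinib samples, again with an overlap. Cd68, a pan-macrophage gene, gave 11.4, 14.7 and 13.4 in the 0%-Axitinib samples and 31.3, 26.8 and 30.6 in the 3%-Axitinib samples. Its 0%-Axitinib samples included replicate 3 at 13.4, close to the other 2, and no sample overlapped. Of 9 genes set against Adgre1, Mertk and Cd68 lay higher in every 3%-Axitinib sample, while 15.8% of the 15256 other tested genes did. The ratios of Csf1r, Lyz2, Itgam and Csf1 to Adgre1 overlapped, and in Csf1r the 3%-Axitinib samples lay at 3.19, 3.23 and 3.15 against 1.86, 1.45 and 3.52. The mean log2 ratio to Adgre1 was higher in the 3%-Axitinib group for all 9 genes, by 0.37 to 1.24. Adgre1 is the shared denominator of all 9 and had the lowest fitted log2 fold change of the macrophage genes (-0.96). Higher ratios to it thus mostly restate its own lower estimate, and no conclusion about the other 9 is drawn from them.

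**Figure D3:**
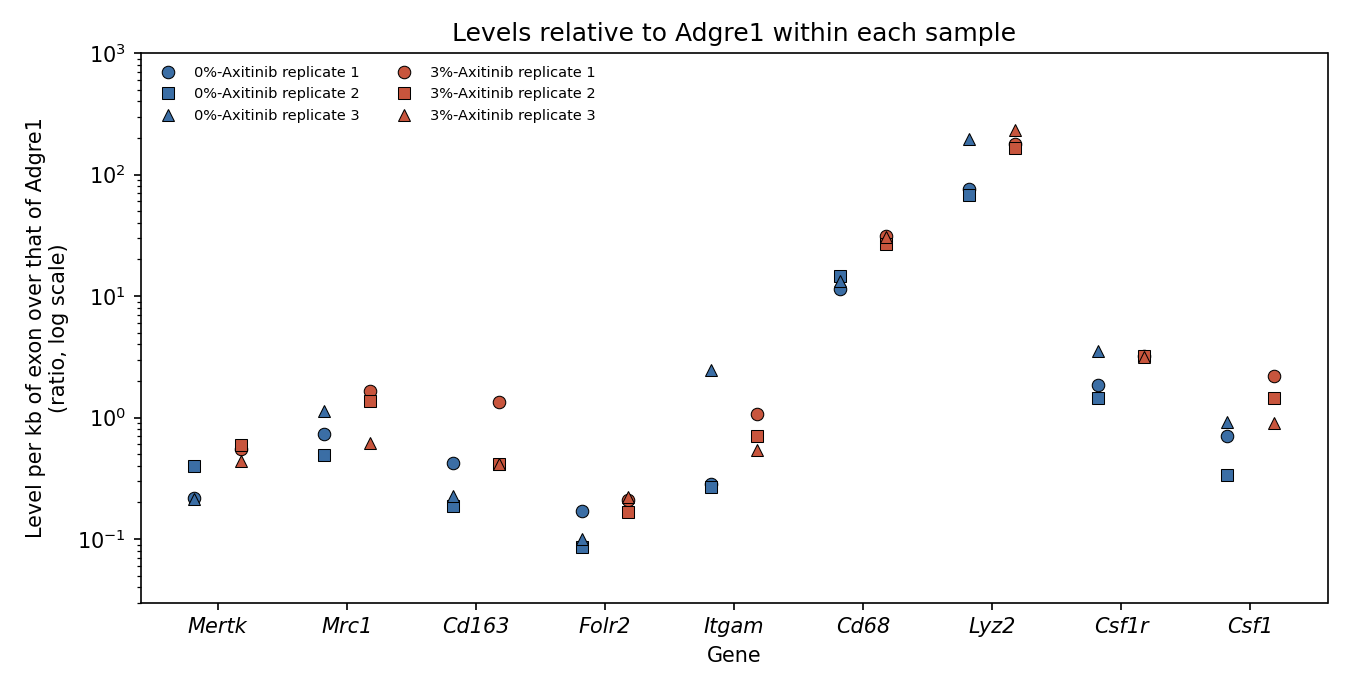
Level of 9 macrophage genes per kilobase of exon divided by that of Adgre1 in the same sample, on a log scale, with circles, squares and triangles for replicates 1, 2 and 3, blue for 0%-Axitinib and red for 3%-Axitinib. The red points of Mertk (0.435 to 0.593) and Cd68 (26.8 to 31.3) lie above all their blue points.

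Levels of different genes were compared per kilobase of exon (RPKM-type values, CPM over the summed exon length). The mean over the 6 samples, with the lowest and highest sample, was highest in Lyz2 (5585, 3927 to 9123), followed by Cd68 (839.7, 303 to 1228) and Csf1r (104, 70.9 to 132). Each of these 3 was above the next gene in all 6 samples, so their order exceeded the spread between samples. Adgre1 came next (44.8, 22.2 to 83.8), ahead of Csf1 (37.8, 20.8 to 50) and Mrc1 (36.7, 24.2 to 51.8). These 3 were not separated by the spread: Adgre1 was above Csf1 in 4 of 6 samples and Csf1 above Mrc1 in 3 of 6. Further down were Itgam (27.3, 20.2 to 55.4), Cd163 (18.2, 5.11 to 30), Mertk (16.8, 4.81 to 33.5) and Folr2 (6.67, 2.28 to 12.1). Mrc1 exceeded Itgam in 5 of 6 samples, with 0%-Axitinib replicate 3 the exception, Itgam exceeded Cd163 in 4 of 6, and Cd163 exceeded Mertk in 3 of 6. Folr2 was below Mertk in all 6. With all 6 samples pooled, the tissue-resident genes thus occupied ranks 6, 8, 9 and 10 of 10 on this scale. By group the order differed. The means of Adgre1, Mrc1 and Csf1 were 59.1, 39.6 and 33.1 in the 0%-Axitinib group and 30.4, 33.8 and 42.6 in the 3%-Axitinib group. The exon lengths behind this scale ran from 1.26 kb (Cd68) to 6.37 kb (Mrc1).

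How alike the patterns of the 10 genes were was measured as the root mean square difference of log2 CPM over the 6 samples, after each gene was centred on its own mean. Of 45 pairs the closest were Csf1r with Lyz2 (0.264), Cd68 with Mertk (0.308) and Mrc1 with Csf1 (0.38). The most distant pairs were Itgam with Cd163 (1.31), with Mertk (1.29) and with Folr2 (1.21). Over the 5 samples without 0%-Axitinib replicate 3 these 3 distances were 0.509, 0.493 and 0.557, and the most distant pair was Adgre1 with Csf1 (0.917). The closest pairs were then Cd68 with Lyz2 (0.235) and Csf1r with Folr2 (0.266), and Csf1r with Lyz2 was at 0.287, Cd68 with Mertk at 0.316 and Mrc1 with Csf1 at 0.384. Over all 6 samples, among 14160 tested genes outside all lists with a mean of at least 1 CPM, those closest to Adgre1 were 4930404N11Rik (0.165), Colgalt1 (0.166), Igf2r (0.171) and Cd300lb (0.174). Igf2r, for example, measured 228, 382 and 93.6 CPM across the 0%-Axitinib samples and 101, 113 and 156 CPM across the 3%-Axitinib samples. Of the other 9 macrophage genes, Csf1r was the closest to Adgre1 (0.482). Those closest to Mrc1 were Rbbp9 (0.0818), L1cam (0.0879), Psrc1 (0.104), Cldn12 (0.104) and Lpp (0.111), and its closest macrophage gene, Csf1, was at 0.38. Genes picked as the closest of 14160 were likely to lie nearer than the closest of 9, so no conclusion is drawn from this comparison. These distances describe 6 samples and carry no test.

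The genes around the CSF1 receptor were taken from a list of 18, with the second ligand, transcription factors of the lineage and signalling proteins downstream of the receptor. All 18 were tested, 5 met the study's criterion as lower in the 3%-Axitinib group (beside 11.7% of all tested genes) and 0 as higher, and none had an adjusted p of at most 0.05 by edgeR's quasi-likelihood test with Benjamini-Hochberg adjustment. When 0%-Axitinib replicate 3 was left out, 4 met it, all lower, beside 13.7% of all tested genes as lower in that fit. They were Cbl, Pik3cd and Lyn, and Zeb2 (-0.92), which did not meet it with all samples. Irf8 (-0.61) and Plcg2 (-0.50) no longer did. The adjusted p was then 0.0379 for Cbl and 0.0463 for Pik3cd by edgeR's quasi-likelihood test with Benjamini-Hochberg adjustment. Their median log2 fold change was -0.44 (-0.37 without that library). Cbl, a ubiquitin ligase that marks the activated receptor for breakdown, measured 124, 197 and 133 CPM across the 0%-Axitinib samples and 61.1, 56.8 and 70.3 CPM across the 3%-Axitinib samples. No sample overlapped, and the log2 fold change was -1.27 (adjusted p = 0.0965 in edgeR, standard error 0.24). Pik3cd, the delta subunit of phosphoinositide 3-kinase in leukocytes, measured 80.8, 101 and 164 CPM across the 0%-Axitinib samples and 42.9, 43.8 and 58 CPM across the 3%-Axitinib samples. It was lower in every 3%-Axitinib sample, with a log2 fold change of -1.25 (adjusted p = 0.0989 in edgeR, standard error 0.30). Lyn, a Src family kinase, had a log2 fold change of -1.08 (adjusted p = 0.106 in edgeR, standard error 0.28), and Plcg2, a phospholipase C, had one of -0.88 (adjusted p = 0.159 in edgeR, standard error 0.31), both without overlap. Irf8, a transcription factor of monocytes and dendritic cells, had a log2 fold change of -0.73 (adjusted p = 0.184 in edgeR, standard error 0.28) with overlapping groups. All 5 are expressed in other leukocytes too. Spi1 (PU.1), a factor that specifies macrophages, did not pass the test and measured 230.4, 296 and 409 CPM across the 0%-Axitinib samples and 220.4, 288 and 314 CPM across the 3%-Axitinib samples, with a log2 fold change of -0.19 (adjusted p = 0.721 in edgeR, standard error 0.29). The most abundant gene of the list per length was Tyrobp, the adaptor DAP12, at 289, 398 and 396 CPM across the 0%-Axitinib samples and 213, 329 and 363 CPM across the 3%-Axitinib samples.

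Other macrophage genes gave a mixed picture. Of 18 further pan-macrophage genes, 2 met the criterion as lower and 0 as higher, beside 11.7% of all tested genes as lower, and their median was -0.16. When 0%-Axitinib replicate 3 was left out, 5 met it as lower, beside 13.7% of all tested genes, as Mpeg1 (-1.45), Cd53 (-0.87) and Sirpa (-0.76) joined the 2, and the median was -0.27. Of these Cd84 had an adjusted p of 0.0457 in edgeR then. Cd84 did not meet the criterion without 0%-Axitinib replicate 2 (log2 fold change -0.66). Nor did it without 3%-Axitinib replicate 1 (-0.97), 2 (-1.235) or 3 (-1.15). With all samples the 2 were Cybb, the catalytic subunit of the phagocyte NADPH oxidase, with a log2 fold change of -1.26 (adjusted p = 0.0986 in edgeR, standard error 0.30), and Cd84, a leukocyte adhesion receptor, with one of -1.11 (adjusted p = 0.169 in edgeR, standard error 0.41). The complement genes C1qa, C1qb and C1qc, which tissue macrophages make in large amounts, had log2 fold changes of 0.12, 0.35 and -0.04 and did not meet it. Lgals3 (galectin-3), the most abundant of this list per length, measured 2281, 3482 and 1532 CPM across the 0%-Axitinib samples and 2368, 2473 and 3664 CPM across the 3%-Axitinib samples. The groups overlapped for Lgals3, as they did for Cd68. The list took 1.35, 1.83 and 0.923% in the 0%-Axitinib samples and 0.897, 0.991 and 1.26% in the 3%-Axitinib samples of the reads on genes.

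Of 20 further genes of resident macrophages, 19 were tested, 4 met the criterion as lower (beside 11.7% of all tested genes) and 0 as higher, and the median log2 fold change was -0.40. Leaving out 0%-Axitinib replicate 3 gave 6 as lower and 1 as higher, beside 13.7% and 14.5% of all tested genes, with a median of -0.56. Siglec1 (-1.67), Stab1 (-0.98) and Vsig4 (-1.38) then met it as lower and Pf4 (1.30) as higher, and Timd4 (-1.60) no longer met it. Adjusted p-values in edgeR were then 0.0418 for Mgl2 and 0.046 for Siglec1. Mgl2, a galactose-type lectin of dermal macrophages and dendritic cells, measured 39.2, 15 and 46.3 CPM across the 0%-Axitinib samples and 5.06, 2.37 and 5.15 CPM across the 3%-Axitinib samples, a log2 fold change of -2.99 (adjusted p = 0.0965 in edgeR, standard error 0.52). With all samples the other 3 were the lectin genes Cd209f (-2.50) and Cd209d (-2.25) and the phosphatidylserine receptor gene Timd4 (-1.87). All 4 were lower in every 3%-Axitinib sample, and they were named because they met the criterion as lower. Over the 19 tested genes, 4 lay lower and 1, Igf1, higher in every 3%-Axitinib sample, beside 16.6% and 14.7% of all tested genes. Lyve1 measured 129.8, 58.5 and 13.3 CPM across the 0%-Axitinib samples and 82.6, 33.2 and 76.5 CPM across the 3%-Axitinib samples, which overlapped and was lowest in 0%-Axitinib replicate 3, as Cd163 and Folr2 were. Marco, a scavenger receptor, had at most 0.182 CPM in any sample, at or under 3 counts. The most abundant gene per length was Selenop, listed in the table as Sepp1. The list took 0.557, 0.395 and 0.361% in the 0%-Axitinib samples and 0.35, 0.338 and 0.402% in the 3%-Axitinib samples. In a list of 13 genes for the uptake of apoptotic cells, in which Mertk acts, 5 met the criterion as lower and 0 as higher, with a median of -0.58 (4 and -0.57 without 0%-Axitinib replicate 3). Gas6 and Pros1, the ligands of the Mertk receptor, measured 894, 610.4 and 651 CPM across the 0%-Axitinib samples and 740, 1608 and 1022 CPM across the 3%-Axitinib samples for Gas6 and 224, 190.5 and 119.5 CPM across the 0%-Axitinib samples and 240.1, 203 and 163 CPM across the 3%-Axitinib samples for Pros1. Neither met the criterion, nor did the related receptor genes Axl (log2 fold change 0.40) and Tyro3 (0.34). With all samples Timd4, Itgav, Itgb3, Elmo1 and Dock2 met it, and without that library Itgav, Dock2 (adjusted p = 0.0437 in edgeR), Abca1 and Stab1. Timd4, Stab1 and Gas6 are also in the list before. Mfge8 was the most abundant of the 13 per length, and the list took 0.793, 0.931 and 0.301% in the 0%-Axitinib samples and 0.56, 0.50 and 0.739% in the 3%-Axitinib samples.

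Markers of other blood cells that share these genes were given beside them. With all samples 11.7% of all tested genes met the criterion as lower and 9.54% as higher. Without 0%-Axitinib replicate 3 these shares were 13.7% and 14.5%. Of 12 neutrophil genes 10 were tested, 6 met the criterion as lower and 0 as higher, with a median log2 fold change of -7.20 that became 0.55 without 0%-Axitinib replicate 3, where 1 met it as lower and 1 as higher. Camp, Ltf and Ngp, proteins of neutrophil granules, measured 4576, 4379 and 7904 CPM in that library and at most 3.85 CPM in any other. Ly6g, the defining marker of neutrophils, was at 503 CPM there and at 0 to 0.47 CPM elsewhere. Itgam was highest where the neutrophil list was highest, and the other 9 macrophage genes, Lyz2 among them, were at their lowest of the group in the same library. Of 10 monocyte genes 1 met the criterion as lower, beside 11.7% of all tested genes. It was Ccr2, the receptor that brings monocytes into tissue, which measured 54.9, 50.1 and 236 CPM across the 0%-Axitinib samples and 24.7, 26.9 and 14.7 CPM across the 3%-Axitinib samples, with a log2 fold change of -2.36 (adjusted p = 0.117 in edgeR, standard error 0.66) that was -1.26 (adjusted p = 0.0467) without 0%-Axitinib replicate 3. The monocyte list took 0.0936, 0.0603 and 0.258% in the 0%-Axitinib samples and 0.115, 0.0551 and 0.0809% in the 3%-Axitinib samples. Hp was its most abundant gene per length, and the median log2 fold change was -1.93 (0.43 without that library, where Chil3 met it as higher). Of 10 pan-leukocyte genes 3 met the criterion as lower (Ptprc, Lcp1 and Ptpn6), with a median of -1.06. Without that library 3 did, as Cd48 (-0.61) joined and Ptpn6 (-0.47) dropped out, and the median was -0.38. Lcp1 did not meet it without 0%-Axitinib replicate 2 (-0.85) or without 3%-Axitinib replicate 1 (-0.90) or 2 (-0.89). Ptpn6 did not meet it without any single 3%-Axitinib sample (-0.83 to -0.97). Ptprc (CD45), on all leukocytes, measured 215, 351 and 363 CPM across the 0%-Axitinib samples and 79.7, 81.7 and 98.1 CPM across the 3%-Axitinib samples, a log2 fold change of -1.84 (adjusted p = 0.0965 in edgeR, standard error 0.27). Ptprc was lower in every 3%-Axitinib sample and also without 0%-Axitinib replicate 3 (log2 fold change -1.71, adjusted p = 0.0379 in edgeR), while none of the 10 macrophage genes separated the groups with all 6 samples. The pan-leukocyte list took 0.197, 0.275 and 0.502% in the 0%-Axitinib samples and 0.122, 0.125 and 0.175% in the 3%-Axitinib samples (exact two-sided permutation test, p = 0.1), and its most abundant gene per length was Coro1a. None of 10 genes of osteoclasts and multinucleated giant cells met the criterion with all samples (median -0.49), and 2 met it as lower without 0%-Axitinib replicate 3, Atp6v0d2 (-1.53, adjusted p = 0.049 in edgeR) and Tnfrsf11a (-1.31). That list took 0.652, 0.759 and 0.734% in the 0%-Axitinib samples and 0.395, 0.837 and 0.569% in the 3%-Axitinib samples, and Ctsk (cathepsin K), its most abundant gene per length, measured 3823, 4726 and 2901 CPM across the 0%-Axitinib samples and 3540, 4596 and 4366 CPM across the 3%-Axitinib samples.

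The remaining marker lists cover other cell types of the tissue, and their part in the macrophage results was not tested. The counts below stand beside 11.7% of all tested genes that met the criterion as lower, and 13.7% without 0%-Axitinib replicate 3. Dendritic cell genes met it as lower for 7 of 10, and the list took 0.191, 0.276 and 0.159% in the 0%-Axitinib samples and 0.0544, 0.0363 and 0.094% in the 3%-Axitinib samples. Its most abundant gene per length, Itgax (CD11c), is also carried by macrophages and measured 1392, 2253 and 316 CPM across the 0%-Axitinib samples and 404, 301 and 815 CPM across the 3%-Axitinib samples. Mast cell genes met it as lower for 7 of 7, with 0.0102, 0.0129 and 0.0195% in the 0%-Axitinib samples and 0.000856, 0.000642 and 0.00381% in the 3%-Axitinib samples and Mcpt4 the most abundant. Blood endothelial genes met it as lower for 7 of 8, with 0.0898, 0.0574 and 0.0848% in the 0%-Axitinib samples and 0.024, 0.0233 and 0.0336% in the 3%-Axitinib samples and Pecam1 the most abundant, so every 3%-Axitinib sample was below every 0%-Axitinib sample for both lists. The lymphatic and sinusoidal endothelial list had 4 of 7 genes tested and 2 lower, and took 0.0229, 0.0171 and 0.00931% in the 0%-Axitinib samples and 0.0196, 0.0103 and 0.0185% in the 3%-Axitinib samples with Pdpn the most abundant, and shares Lyve1 with the resident macrophage list, while Prox1, which defines lymphatic vessels, was at most 0.731 CPM. T cell genes took 0.00202, 0.00321 and 0.0238% in the 0%-Axitinib samples and 0.00154, 0.000924 and 0.00151% in the 3%-Axitinib samples with Cd3d the most abundant over all samples. Cd3d led through 0%-Axitinib replicate 3 (66.7 CPM), and in the other 5 samples it was at 0 to 1.57 CPM while Cd2 was at 5.1 to 13.3 CPM. The highest T cell share was that of 0%-Axitinib replicate 3, and Cd8a was at 0 in the 3 samples of the 3%-Axitinib group. In the T cell list 5 of 8 genes were tested and 3 met the criterion as lower, and in the B cell list 5 of 7 were tested and 5 did. B cell genes took 0.0167, 0.0316 and 0.125% in the 0%-Axitinib samples and 0.00388, 0.00268 and 0.00498% in the 3%-Axitinib samples, with Ighm the most abundant. With 0%-Axitinib replicate 3 left out, those called lower were 7 dendritic cell, 6 mast cell, 5 blood endothelial, 1 lymphatic, 2 T cell and 4 B cell genes.

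Tissue around the implant also differed from sample to sample. Genes of fibroblasts met the criterion as higher for 2 of 9 (Col1a1 and Thy1), and for 0 of 9 without 0%-Axitinib replicate 3, beside 9.54% of all tested genes with all samples. The log2 fold change was 1.79 for Col1a1 and 0.87 for Thy1, and 1.58 and 0.70 without that library. It was 0.83 and 0.52 without 3%-Axitinib replicate 2. The list took 2.98, 1.4 and 1.12% in the 0%-Axitinib samples and 2.38, 6.71 and 2.52% in the 3%-Axitinib samples, with Col1a1 the most abundant. Adipocyte genes met it as lower for 3 of 6, beside 11.7% of all tested genes, and took 0.0675, 0.0644 and 0.0824% in the 0%-Axitinib samples and 0.0301, 0.0279 and 0.0257% in the 3%-Axitinib samples, with Fabp4 the most abundant. Skeletal muscle genes met it as higher for 6 of 8, beside 9.54%, and took 0.0132, 0.000395 and 0.000866% in the 0%-Axitinib samples and 1.17, 0.00146 and 0.633% in the 3%-Axitinib samples, with Acta1 the most abundant and Ckm at 0 in 0%-Axitinib replicate 3 and 3%-Axitinib replicate 2. Keratinocyte genes took 0.00049, 0.0974 and 0.000811% in the 0%-Axitinib samples and 0.00078, 0.000693 and 0.000505% in the 3%-Axitinib samples, with Krt10 the most abundant, 2 of 3 tested genes lower, and Krt1 at 0 in 4 of 6 samples. Those 2 calls rested on 0%-Axitinib replicate 2, without which Krt10 was at 0.52 and Lor at -1.21. The high muscle share belonged to 3%-Axitinib replicates 1 and 3 and the high keratinocyte share to 0%-Axitinib replicate 2. Chondrocyte genes met the criterion as higher for 4 of the 5 tested of 6 and took 0.0323, 0.019 and 0.0143% in the 0%-Axitinib samples and 0.0278, 0.105 and 0.0413% in the 3%-Axitinib samples, with Comp the most abundant and Matn3 at or under 3 counts in all 6 samples. The BEC was made of rabbit cells, and whether rabbit reads were among those counted on these genes was not tested. With 0%-Axitinib replicate 3 left out, 3 adipocyte and 3 keratinocyte genes met the criterion as lower and 4 muscle and 4 chondrocyte genes as higher, beside 13.7% and 14.5% of all tested genes. Of the macrophage genes, Adgre1, Csf1r, Lyz2, Cd68 and Folr2 were higher in 3%-Axitinib replicate 3 than in the other 2 samples of its group, and Mrc1 and Csf1 were lower there.

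**Figure D4:**
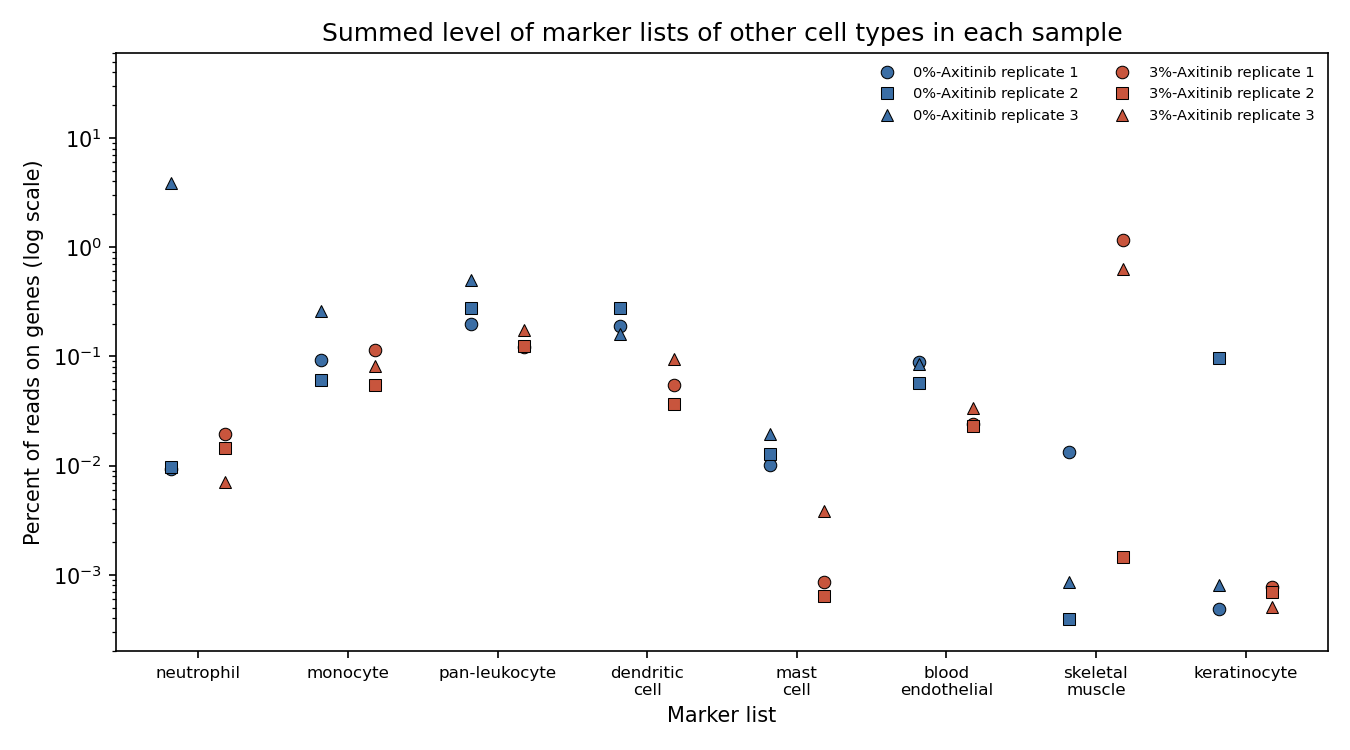
Summed level of 8 marker lists of other cell types in each sample, as a percent of the reads on genes on a log scale, with circles, squares and triangles for replicates 1, 2 and 3, blue for 0%-Axitinib and red for 3%-Axitinib. The neutrophil list reached 3.91% in 0%-Axitinib replicate 3 and at most 0.0194% in the other 5 samples.

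Promoter sequences were searched for what the genes share beyond their use as markers. RefSeq promoters (GRCm38.p6, 250 bases before to 50 bases after the start) were matched for 8 of the 10 genes, with no entry for Adgre1 and Csf1r. The letters GAGGAA, the core bound by PU.1, were found on either strand in the promoters of 3 of the 8 genes (Itgam, Mrc1 and Cd68) and in 28.3% of all 32851 promoters. The longer PU.1 letters GAGGAAGT, which contain that core, were found in 0 of the 8 and 3.2% of all promoters, and a MAF site (TGCTGAC) in 0 of the 8 and 4.67%. A match is a description of letters, and no match says only that these letters are not in this window. The 250 bases before the starts of Itgam and Cd68 are shown because these pan-macrophage genes went opposite ways in 0%-Axitinib replicate 3, where Itgam was the highest and Cd68 the lowest of all 6 samples. Itgam lies on the forward strand (chr7:128062390-128062639) and Cd68 on the reverse strand (chr11:69666171-69666420), each is written 5′ to 3′ along its gene, and capitals mark GAGGAA or its complement TTCCTC.
Itgam: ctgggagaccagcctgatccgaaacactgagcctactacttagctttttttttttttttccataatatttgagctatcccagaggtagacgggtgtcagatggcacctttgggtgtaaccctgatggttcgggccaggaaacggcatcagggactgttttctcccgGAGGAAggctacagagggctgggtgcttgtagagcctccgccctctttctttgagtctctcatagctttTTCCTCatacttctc
Cd68: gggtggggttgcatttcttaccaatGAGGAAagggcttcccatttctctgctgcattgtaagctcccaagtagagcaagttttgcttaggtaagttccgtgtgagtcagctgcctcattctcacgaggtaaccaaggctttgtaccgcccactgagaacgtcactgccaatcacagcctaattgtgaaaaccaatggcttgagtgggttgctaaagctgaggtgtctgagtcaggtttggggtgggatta
Upstream of the start the core letters began at base -84 and, on the other strand, at base -15 of Itgam, and at base -225 of Cd68.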

How the data were processed

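Raw read counts per gene for 6 samples (3 of the 0%-Axitinib group, 3 of the 3%-Axitinib group) were deposited by the authors in 1 table, whose reads were aligned with STAR 2.5.2b per the submitters' processing notes (mouse, GRCm38). Strand setting and annotation release were not stated. The table's 4 lines of reads given to no gene were left out of library sizes: unmapped reads were 5.47, 3.84, 14.9, 48.4, 29.2 and 16.8% of each library (0%-Axitinib replicates 1 to 3, then 3%-Axitinib replicates 1 to 3), multiply mapped reads 4.36, 3.79, 6.65, 2.71, 4.20 and 3.55%, reads on no feature 6.14, 5.84, 4.91, 3.17, 3.30 and 3.83%, and ambiguous reads 5.27, 5.62, 4.79, 3.55, 4.04 and 5.74%.

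All genes kept by filterByExpr (minimum count 10, minimum total 15) were fitted together in edgeR 4.0.16 (R 4.3.3) with TMM normalisation and its quasi-likelihood F test, and p-values were adjusted by Benjamini-Hochberg over the 15257 genes. Standard errors and 95% intervals were derived from the F statistic, and fold changes were fitted with edgeR's default prior count. Per-sample means of log2 CPM used a prior count of 2. The study's criterion was a fold change of at least 1.5 with p at most 0.05. A count of 3 was the limit of detection, which corresponds to 0.330 CPM in the library with the fewest reads on genes (9225518) and 0.157 to 0.273 CPM in the others. Poisson intervals cover counting error only. Lengths are summed GENCODE exons of GRCm38, and promoters are RefSeq, GRCm38.p6. Scripts were tested on simulated data and used Python 3.11.15, pandas 2.3.3 and matplotlib 3.10.9.

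The members and the 19 other gene lists were chosen with earlier results of these data known. The rule for named genes took all 10 members, Lyz1, each CSF1 receptor pathway gene that met the criterion, in each other list up to 3 genes with the largest increase and up to 3 with the largest decrease among those that met it with a mean of at least 1 CPM, the most abundant gene per length, defining markers near 0, and the 5 genes closest in pattern to Adgre1 and to Mrc1. Other list genes were named after their values were seen. Some genes that this rule or the lists hold are not reported here. Alternatives were DESeq2 1.42.0 size factors, total counts, no filter, at least 10 counts in every sample, the DESeq2 Wald test, limma 3.58.1 voom, a replicate block and leaving out each sample; their use for list genes, and leaving out 0%-Axitinib replicate 3 for distances and spreads, was chosen after seeing the data.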

Additional observations from a re-analysis of the deposited data

How the results depend on the processing

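The count of macrophage genes that met the criterion stayed at 0 under every other scaling, filter and test, and the sign of the log2 fold change of Adgre1 and Csf1r was negative, and that of Csf1 positive, under all alternatives. With all samples, the values that turned were those of Mertk (0.19 with limma-voom, 0.15 with the replicate block) and Folr2 (0.085 with limma-voom). Leaving out 1 sample at a time gave -1.35 to -0.62 for Adgre1, -0.18 to 0.68 for Cd68, -0.83 to 0.041 for Itgam, -0.22 to 0.45 for Lyz2, -0.64 to 0.63 for Mertk, -0.47 to 0.010 for Mrc1, -0.25 to 0.90 for Cd163, -0.64 to 0.37 for Folr2 and 0.12 to 0.79 for Csf1. In these fits the sign turned for Cd68, Itgam, Lyz2, Mertk, Mrc1, Cd163 and Folr2. It also gave 0 to 1 macrophage genes that met the criterion, and 0 to 1 with an adjusted p of at most 0.05 by edgeR's quasi-likelihood test with Benjamini-Hochberg correction. Over all tested genes the number with an adjusted p of at most 0.05 was 1 by that test, 0 to 1252 with 1 sample left out, 15 with no filter, 1961 with DESeq2, 2 with limma-voom and 2 with the replicate block. Among list genes, Krt10 ran from -4.50 to 0.52 with 1 sample left out. In some of these fits Cd84, Lcp1, Ptpn6, Irf8, Plcg2, Itgb3, Dock2 and Timd4, among others, did not meet the criterion. The cause was not tested.

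With the replicate number as a replicate block, the log2 fold change was -0.83 for Adgre1 and the medians were -0.20 for pan-macrophage and 0.06 for tissue-resident genes, a difference of 0.26. That difference was -0.37 to 0.26 with 1 sample left out and 0.36 with limma-voom. Samples with the same number had correlations of 0.182, -0.115 and -0.174 of their deviations from group means, so the numbers were not taken as pairs, and not every sample correlated best with its own number. Each group held 3 samples whose mice are not named, so results cannot be separated from differences between mice. The smaller depth of 3%-Axitinib replicates 1 and 2 limits detection of rare genes there, and Folr2 is the macrophage gene with the fewest counts.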

Other observations

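The spread of the macrophage genes within each group was described with no test and without the share over all tested genes. With all samples, the ratio of the highest to the lowest sample was larger in the 0%-Axitinib group for 8 of the 10 genes. The exceptions were Csf1r, at 1.66 against 1.75, and Lyz2, at 1.28 against 2.32. When 0%-Axitinib replicate 3 was left out, it was larger there for 2, Mertk and Csf1. That count sets 2 samples against 3, and a ratio over fewer samples tends to be smaller, so it does not compare the spreads. Replicate 1 of the 0%-Axitinib group was the highest of all 6 samples for 5 genes and replicate 2 for 3, while all 3 samples of the 3%-Axitinib group lay within the 0%-Axitinib range for 6. Set against the mean of the other 2 samples of its group, 0%-Axitinib replicate 3 was at 0.197 for Mertk, 0.224 for Cd163, 0.237 for Folr2, 0.292 for Adgre1 and 0.297 for Cd68. It was at 0.532 for Csf1, 0.552 for Mrc1, 0.629 for Csf1r and 0.805 for Lyz2. Itgam, at 2.6, was the only one of the 10 above 1.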
